A study of Mus musculus with 10 samples.

Results

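Clusters 10 and 14 are the pair of the authors' clusters in the mouse paraventricular hypothalamus (PVH) with the highest mean level of *Crh*, the gene of corticotropin-releasing hormone. Their members were taken from the authors' cluster numbers, with 62 cells in cluster 10 and 57 in cluster 14, or 119 of the 706 cells kept after quality control. Single cells were picked by hand from the dissected PVH of male *Agrp-IRES-Cre* × *Ai9* mice over 7 weeks old, in which Cre made from the *Agrp* locus switches on the red reporter tdTomato, and RNA was counted as unique molecular identifiers (UMIs) on 10 plates. All mice had this genotype and no treatment was compared. The labels call the picked cells tdTomato-positive neurons, whereas the methods use the labelled AGRP axons to find the edge of the PVH, and *Agrp* itself had no UMI in either cluster. Before picking, slices were held in blockers of neuronal activity (TTX, APV and DNQX) with pronase for 50 minutes, according to the labels. Which animals went to which plate is not given in the sources used here, so the plate served as the replicate. The p-values of gene tests measure how a cluster difference spread over plates, the sampling of few cells per plate included. Those of cluster shares measure the spread between plates.

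CRH neurons of the PVH include the neuroendocrine cells that release the hormone into the portal blood of the median eminence, where it drives pituitary ACTH and thereby adrenal glucocorticoids. Glucocorticoids act back on these cells through the glucocorticoid receptor. Other PVH neurons with *Crh* project within the brain. Secretagogin, encoded by *Scgn*, is a calcium sensor that takes part in hormone release. Proenkephalin, encoded by *Penk*, is the precursor of the enkephalins, and reelin, encoded by *Reln*, is a secreted protein of the extracellular matrix.

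*Scgn* and *Reln* were found mainly in opposite clusters, and the 250 bases before their start sites are shown as the upstream sequence of these opposed markers. RefSeq promoter sequence was matched for 2 of the 4 markers, these being *Scgn* and *Reln*. The *Scgn* stretch lies at chr13:23991215-23991464 and the *Reln* stretch at chr5:22344706-22344955, both on the minus strand of GRCm38.p6. Capitals mark matches, on either strand, to any of 5 short motifs given after the sequences.
Scgn: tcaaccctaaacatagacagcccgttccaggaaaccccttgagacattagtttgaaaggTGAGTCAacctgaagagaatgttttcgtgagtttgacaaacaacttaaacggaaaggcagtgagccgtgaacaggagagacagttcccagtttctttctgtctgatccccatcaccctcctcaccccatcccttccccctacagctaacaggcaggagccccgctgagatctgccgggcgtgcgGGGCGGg
Reln: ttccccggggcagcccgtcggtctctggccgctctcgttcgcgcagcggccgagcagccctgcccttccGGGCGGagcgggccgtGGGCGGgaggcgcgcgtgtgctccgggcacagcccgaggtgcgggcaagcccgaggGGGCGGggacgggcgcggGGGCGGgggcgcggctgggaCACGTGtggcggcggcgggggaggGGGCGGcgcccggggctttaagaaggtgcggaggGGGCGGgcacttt
The *Reln* stretch was 80.0% G or C with 37 CpG dinucleotides, and the *Scgn* stretch 53.2% with 9, against medians of 52.4% and 6 over 32851 promoters. It held 6 GC boxes and 1 E-box, and the *Scgn* stretch 1 AP-1 site and 1 GC box. The GC box was searched as GGGCGG, and 32.7% of all promoter stretches of this length held it. An AP-1 site, the binding site of Fos and Jun proteins, was searched as TGAGTCA and was held by 4.46%. An E-box was searched as CACGTG and was held by 6.02%. Neither stretch shown held the cAMP response element TGACGTCA, which 1.55% of all stretches held. A TATA box, searched as TATAAA, was likewise in neither of them and in 12.4% of all. These matches describe letters in a window only.

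The clusters were checked against the 4 markers cell by cell, with detection meaning at least 1 UMI. *Crh* was detected in 57 of 57 cells of cluster 14 and in 53 of 62 cells (85.5%, 74.2% to 93.1%, exact Clopper-Pearson 95% interval) of cluster 10, so that detection and level ran in opposite directions. The median cell held 1317 CPM (UMIs per 1000000 UMIs of the cell) of *Crh* in cluster 10 and 335 CPM in cluster 14. In the other PVH clusters *Crh* was found in 8.07% of 545 cells. *Scgn* was detected in 44 of 62 cells (71.0%, 58.1% to 81.8%) of cluster 10 and in 1 of 57 cells (1.75%, 0.0444% to 9.39%) of cluster 14. *Reln* had the mirror image, with 5 of 62 cells (8.06%, 2.67% to 17.8%) in cluster 10 against 49 of 57 cells (86.0%, 74.2% to 93.7%) in cluster 14. *Penk* divided the clusters least of the 3, with 14 of 62 cells (22.6%, 12.9% to 35.0%) against 26 of 57 cells (45.6%, 32.4% to 59.3%). Intervals cover counting error only.

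The same shares were taken at equal depth. With each cell thinned to 58489 UMIs, which left out 9 cells of cluster 10 and 3 of cluster 14, *Crh* was detected in 84.9% and 94.4%, and *Scgn* in 66.0% and 1.85%. *Penk* was then found in 20.8% and 38.9%, and *Reln* in 7.55% and 85.2%. The 40 control wells, with a median of 170 UMIs in all, held 1 UMI of *Crh*, 1 of *Penk* and 0 of *Scgn* and *Reln*.

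**Figure D1:**
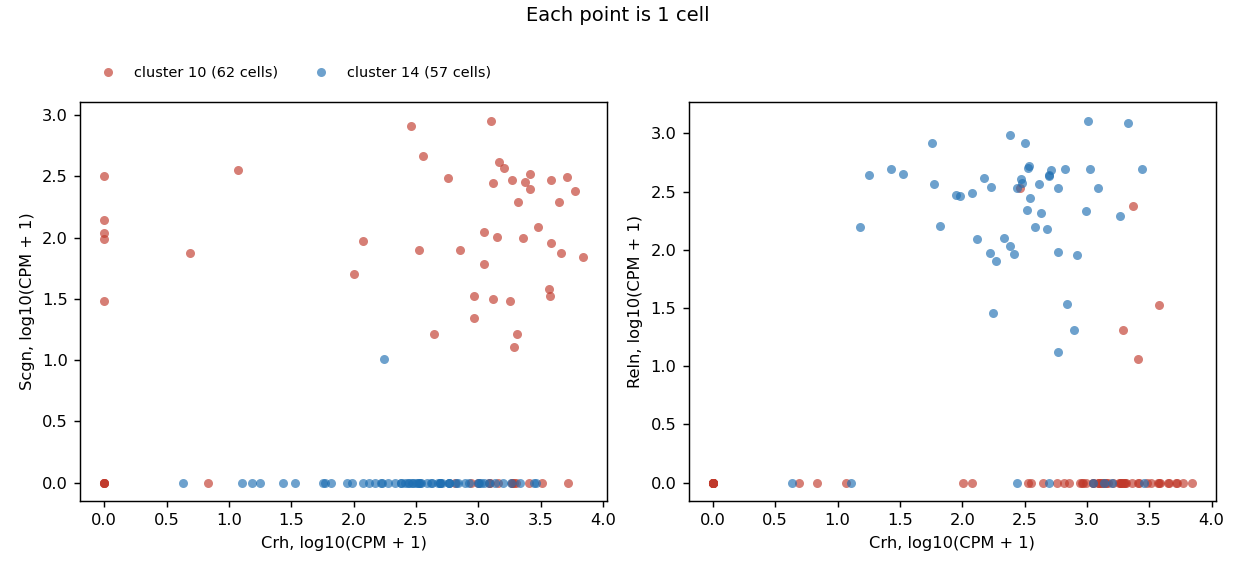
Level of *Crh* (horizontal axis) against *Scgn* (left) and *Reln* (right) in single cells, as log10(CPM + 1), with cluster 10 in red and cluster 14 in blue. *Scgn* was detected in 44 of 62 red and 1 of 57 blue cells and *Reln* in 5 of 62 red and 49 of 57 blue cells, and the red points at 0 on the horizontal axis are the 9 cells of cluster 10 without *Crh*.

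Within cluster 10, 39 cells held both *Crh* and *Scgn*, 14 held *Crh* without *Scgn*, 5 held *Scgn* without *Crh* and 4 held neither. The 9 cells without *Crh* lay on 5 plates, with 3 on Q6, 2 on Q5, 2 on JM6, 1 on JM7 and 1 on JM8, and on JM6 they were 2 of the 3 cells of the cluster. Cluster 14 was uneven for *Penk*, whose level ran from 0 to 9313 CPM, and 16 of its 26 cells with a UMI exceeded 1000 CPM. Those 26 cells had a median of 201 CPM of *Crh*, and the 31 cells without *Penk* had 426 CPM. *Reln* was found in 24 of the 26 cells with *Penk* and in 25 of the 31 without. In cluster 10 the 14 cells with *Penk* had a median of 683 CPM of *Crh* and the 48 without had 1537 CPM. These splits describe cells that share plates and were not tested.

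The labelled region was checked with genes of PVH and neuronal identity. *Sim1*, the transcription factor that specifies the PVH, was detected in 40.3% of cells of cluster 10 and 56.1% of cluster 14, against 62.6% in the other PVH clusters. *Slc17a6*, which encodes the vesicular glutamate transporter of hypothalamic neurons, was detected in 62.9% and 96.5%. *Slc32a1*, the vesicular GABA transporter gene, had no UMI in either cluster, which allows shares of cells with a UMI of up to 4.84% and 5.26% (3 cells of the total). *Snap25*, a general neuronal gene, was found in 60 of 62 and 56 of 57 cells. Of the markers of glia and microglia, *Pdgfra*, *Ctss* and *Aif1* had no UMI in either cluster, *Aqp4* was found in 1 and 0 cells, *Opalin* in 1 and 0 and *Olig2* in 0 and 1. Of the 29 genes of glia, vessels and ependyma on the list 0 passed the filter on low counts.

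Across the 12 PVH clusters, cluster 10 had the highest mean level of *Crh* and *Scgn*, and cluster 14 of *Penk* and *Reln*. The clusters were drawn from the same genes, so these levels are a description with no test. *Crh* averaged 1743 ± 805 CPM in cluster 10 (SD, n = 7 plates with at least 3 cells) and 522 ± 236 CPM in cluster 14 (SD, n = 8). Cluster 13 followed at 465 ± 735 CPM (SD, n = 3), which overlapped cluster 14, and the remaining clusters had means of 20.8 CPM or less. *Scgn* averaged 128 ± 72.8 CPM in cluster 10 and 0.292 ± 0.827 CPM in cluster 14, and the next cluster after cluster 10 was cluster 2 at 18.0 ± 18.9 CPM (SD, n = 5).

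*Penk* averaged 1274 ± 984 CPM in cluster 14 and 201 ± 265 CPM in cluster 10, where it ranked 4th, within the spread of clusters 15 and 12. *Reln* averaged 289 ± 106 CPM in cluster 14 and 11.7 ± 20.5 CPM in cluster 10. Its level in cluster 14 lay within the spread of cluster 12 at 191 ± 98.9 CPM (SD, n = 6), and *Reln* was also present in clusters 15 and 13 at 156 ± 118 CPM (SD, n = 8) and 101 ± 68.5 CPM (SD, n = 3).

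**Figure D2:**
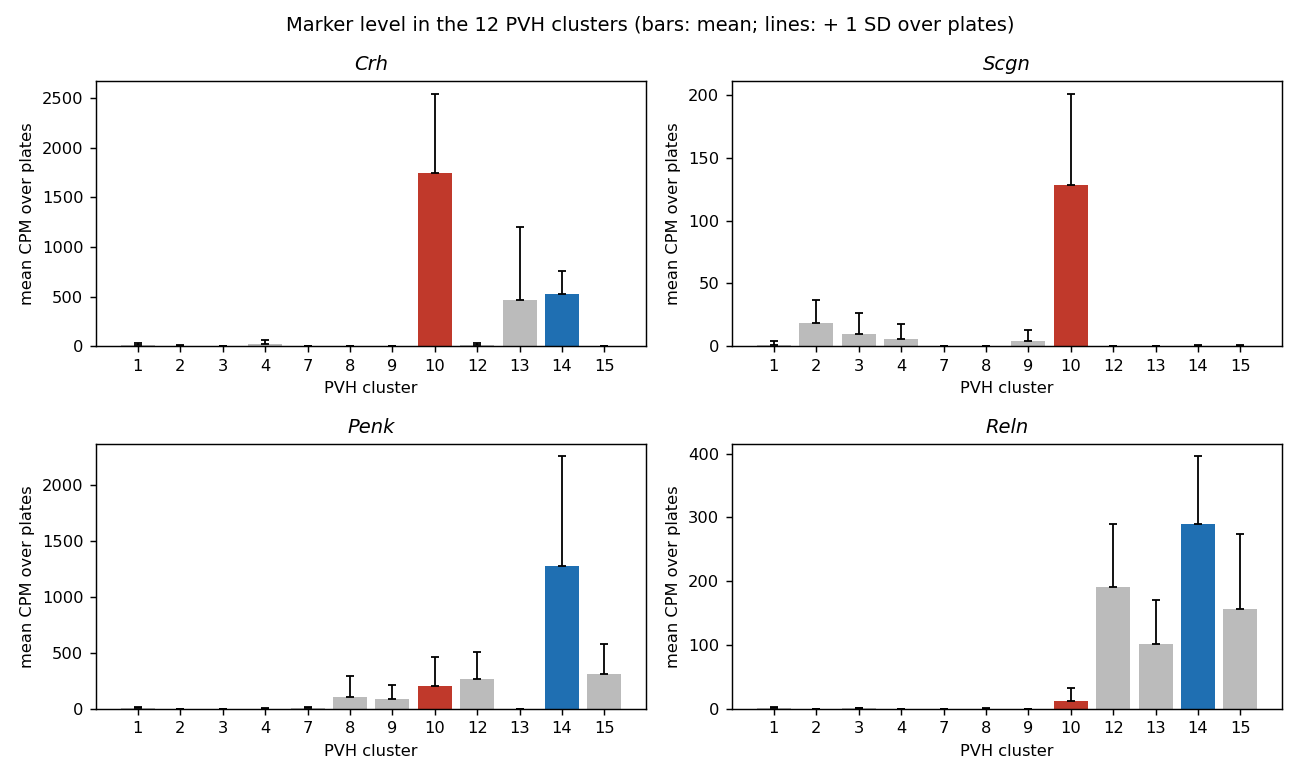
Mean CPM of *Crh*, *Scgn*, *Penk* and *Reln* in each of the 12 PVH clusters, over plates with at least 3 cells of the cluster, with lines up to 1 SD above the mean. Cluster 10 (red) stands highest for *Crh* (1743) and *Scgn* (128), and cluster 14 (blue) for *Penk* (1274) and *Reln* (289).

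The clusters were then compared within plates. UMIs were summed over the cells of each cluster on each plate, and 5 plates had at least 3 cells of both, namely Q5 (5 cells of cluster 10 and 9 of cluster 14), Q7 (7 and 3), AL5 (5 and 4), JM6 (3 and 6) and JM8 (11 and 11). These pairs held 31 and 33 of the cells, and their sums ran from 185906 to 2546904 UMIs. Levels below on the paired plates are CPM on TMM-scaled totals. Means over the PVH clusters or over all plates are CPM on plain totals, over plates with at least 3 cells of the cluster. A log2 fold change is cluster 10 minus cluster 14. A gene is called at an adjusted p under 0.05 by the quasi-likelihood method of edgeR, fitted with plates as blocks. SE is the standard error of a log2 fold change. Of 7069 genes tested, 60 were higher in cluster 10 (0.849%) and 46 in cluster 14 (0.651%), together 106 genes or 1.5%. Each called gene had the same direction on 5 of 5 plates. The filter on low counts asked for a minimum level in at least 5 sums. A gene below that level throughout 1 cluster was therefore tested only if all 5 sums of the other reached it. For such genes, among them *Plk2*, *Fezf2*, *Foxp2*, *Edil3*, *Caln1*, *Pcdh19* and *Fgf13*, the filter itself fixed the direction and the lack of overlap. At an unadjusted p under 0.05 there were 771 genes. Because the clusters were drawn from these cells, the tests say how evenly a gene differed over plates and are not independent evidence for the clusters. The median log2 fold change of all tested genes was -0.20. In simulated sums of these genes with 200 changed, edgeR made 4 false calls and DESeq2, used below as an alternative, made 80. The simulated sums held no differences between plates and took their spread from edgeR, so these counts may not carry over to the real sums. Where a list is described, its DESeq2 calls are given as higher in cluster 10 and then in cluster 14. Over all 17512 genes DESeq2 fitted, it called 244 and 368, with a median log2 fold change of 0.04. For DESeq2, genes given as tested are all genes fitted, any without an adjusted p included as not called. Calls on a list are to be set against these counts and the edgeR shares above.

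**Figure D3:**
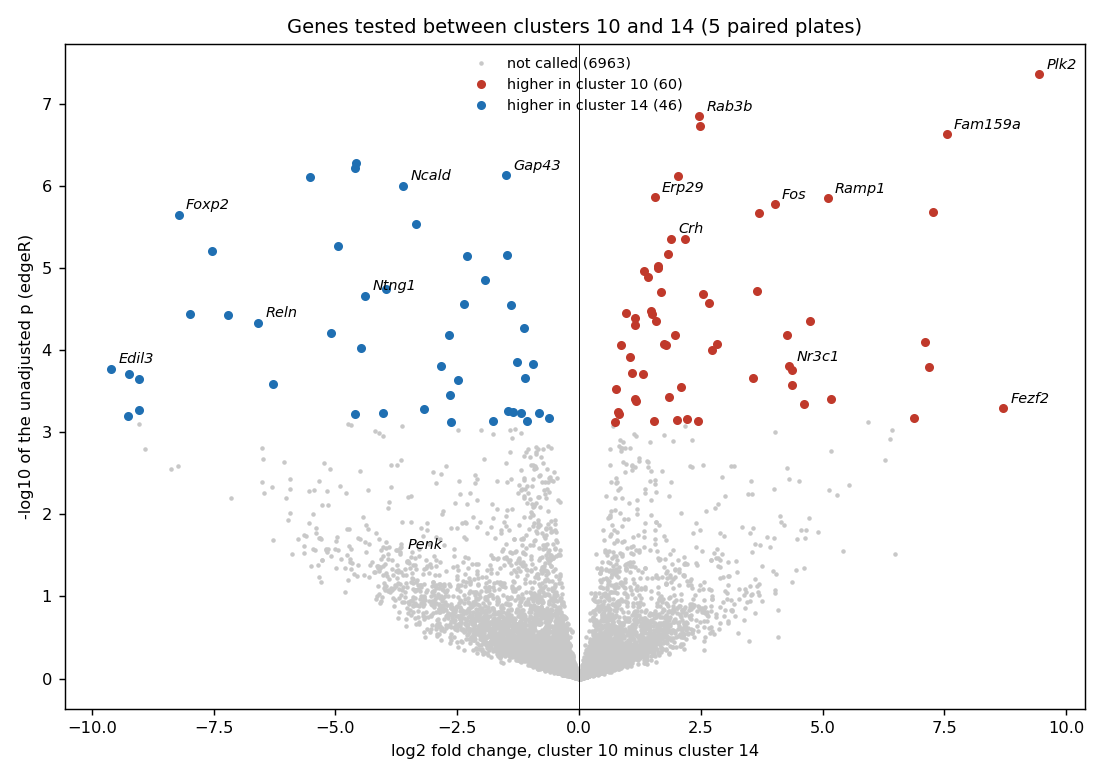
Log2 fold change (cluster 10 minus cluster 14) against -log10 of the unadjusted edgeR p for the 7069 genes tested on 5 plate pairs. Red points are the 60 genes called higher in cluster 10, blue points the 46 called higher in cluster 14 and grey points the rest, *Penk* among them.

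Depth was compared on these plates, where 5 pairs were too few for any measure to reach a p under 0.05 in the exact test. The plate medians of UMIs per cell averaged 88842 ± 34340.3 in cluster 10 and 170916 ± 94326 in cluster 14 (SD, n = 5 plates), lower in cluster 10 on 5 of 5 plates (exact two-sided sign-flip permutation test, p = 0.0625, the smallest that 5 pairs allow). Genes per cell averaged 4154 ± 460.0 and 5337 ± 566 (exact permutation p = 0.125). UMIs of genes per spike-in UMI averaged 6.36 ± 3.24 and 9.79 ± 3.85, lower in cluster 10 on 5 of 5 plates (exact permutation p = 0.0625). Adjusted over the 3 measures these p-values were 0.0938, 0.125 and 0.0938. Over all cells on all plates the median cell had 107573 UMIs in cluster 10 and 102969 in cluster 14, and 3981 and 5562 genes.

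With cells thinned to equal UMIs, 37 genes were called higher in cluster 10 and 26 in cluster 14. Thinning left 2 cells of cluster 10 on JM6, so that this fit had 4 plate pairs, and leaving out JM6 without thinning gave 29 and 21. Without the deepest cell of each sum, on 5 pairs, 35 and 20 genes were called. The 101 and 100 of the 106 called genes that could be tested there kept their sign.

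Plates also differed in how many cells of each cluster they held. Cluster 10 made up 13.4% ± 7.21 of the PVH cells on plates with the prefix Q (SD, n = 4) and 5.53% ± 6.12 on the AL and JM plates (SD, n = 6; exact two-sided permutation p = 0.1, adjusted 0.1 over both clusters). Cluster 14 made up 4.77% ± 4.29 and 12.3% ± 4.30 (exact permutation p = 0.0381, adjusted 0.0762). In all, 41 of 62 cells of cluster 10 came from Q plates and 42 of 57 cells of cluster 14 from AL and JM plates, and the fit within plates keeps cluster and prefix apart. Within the Q plates 41 genes were called and within the AL and JM plates 96. A test of whether the cluster difference itself differed between the prefixes called 0 of 7069 genes (0%) in edgeR, with 293 at an unadjusted p under 0.05, and 9 genes with no filter on low counts. In simulated sums, again without differences between plates, this interaction test found 22% of 8-fold and 50% of 32-fold differences.

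*Crh* (chr3:19693401-19695396, minus strand, GRCm38), the hormone gene itself, was called higher in cluster 10. Its level there was 1839 CPM on Q5, 1440.3 on Q7, 2988 on AL5, 1474 on JM6 and 2861 on JM8. In cluster 14 it was 287, 966, 603, 514 and 593 CPM on the same plates. The lowest sum of cluster 10 stood above the highest of cluster 14, and Q7 had the smallest gap. On Q7, 1 of the 3 cells of cluster 14 held 681 of its 757 *Crh* UMIs. On JM6, 1 of the 3 cells of cluster 10 held all 282. The log2 fold change was 1.88 (SE 0.27, adjusted p = 0.00166 in edgeR), with 1.62 on the Q plates (adjusted p in edgeR = 0.044) and 2.02 on the AL and JM plates (0.00138). The call held with each plate left out. On the mean of log2(CPM + 1) per cell, where a cell without *Crh* weighs heavily, the difference was 0.09 and not called (limma adjusted p = 0.951).

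*Scgn* (chr13:23953456-23991214, minus strand) was close to an on-off gene between the clusters. It had 195 CPM on Q5, 116 on Q7, 139 on AL5, 10.8 on JM6 and 142 on JM8 in cluster 10, on plain totals. In cluster 14 it had 1 UMI, on AL5 (2.34 CPM), and none on the other plates. The lowest level in cluster 10, on JM6, was 2 UMIs from 3 cells, and *Scgn* stayed below the filter on low counts and is not among the 7069 genes. It was tested under 10 other settings and called in 10 of them, with a log2 fold change of 8.45 (SE 1.47, adjusted p = 3.01e-06 in edgeR) when no filter was used. Where a filter was used, its UMIs in cluster 10 decided whether it was tested. These calls describe a marker of the clusters and are no added evidence.

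*Reln* (chr5:21884454-22344702, minus strand) was called higher in cluster 14, where it had 173 CPM on Q5, 233 on Q7, 173 on AL5, 442 on JM6 and 418 on JM8. In cluster 10 it was at 0 on Q7, JM6 and JM8, at 1.73 CPM on Q5 and at 53.5 CPM on AL5, where 2 of 5 cells carried it. The groups did not overlap. The log2 fold change was -6.58 (SE 1.15, adjusted p = 0.00711 in edgeR). Its adjusted p was 0.0538 without Q5, 0.0817 without JM6 and 0.0542 without JM8, 0.0828 with thinned cells, a fit that lacked JM6, and 0.069 with only the AL and JM plates. An exon of *Reln* overlaps the gene model *Gm10475* on the other strand, and whether counting used strand is not given in the sources used here.

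*Penk* (chr4:4133531-4138819, minus strand) was lower in cluster 10 on 5 of 5 plates but was not called. Cluster 14 had 1588 CPM on Q5, 1497 on Q7, 236 on AL5, 1849.8 on JM6 and 559 on JM8, against 831, 361, 0, 0 and 28.3 CPM in cluster 10. In cluster 14 a single cell held 3047 of 3253 *Penk* UMIs on Q5, 1174 of 1174 on Q7 and 101 of 102 on AL5. On JM6 a single cell held 577 of 795 and on JM8 668 of 740, so these sums rest largely on single cells. The ranges of the clusters overlapped, with Q5 of cluster 10 above AL5 and JM8 of cluster 14. The log2 fold change was -3.67 (SE 1.26, adjusted p = 0.386 in edgeR). *Penk* was called at -4.72 with DESeq2 (adjusted p = 0.0206), at -1.50 on the Q plates, at -5.92 on the AL and JM plates and at -4.64 without Q5 (adjusted p in edgeR = 0.0201, 0.00203 and 0.0235). It overlaps an exon of the gene model *A830012C17Rik* on the other strand.

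**Figure D4:**
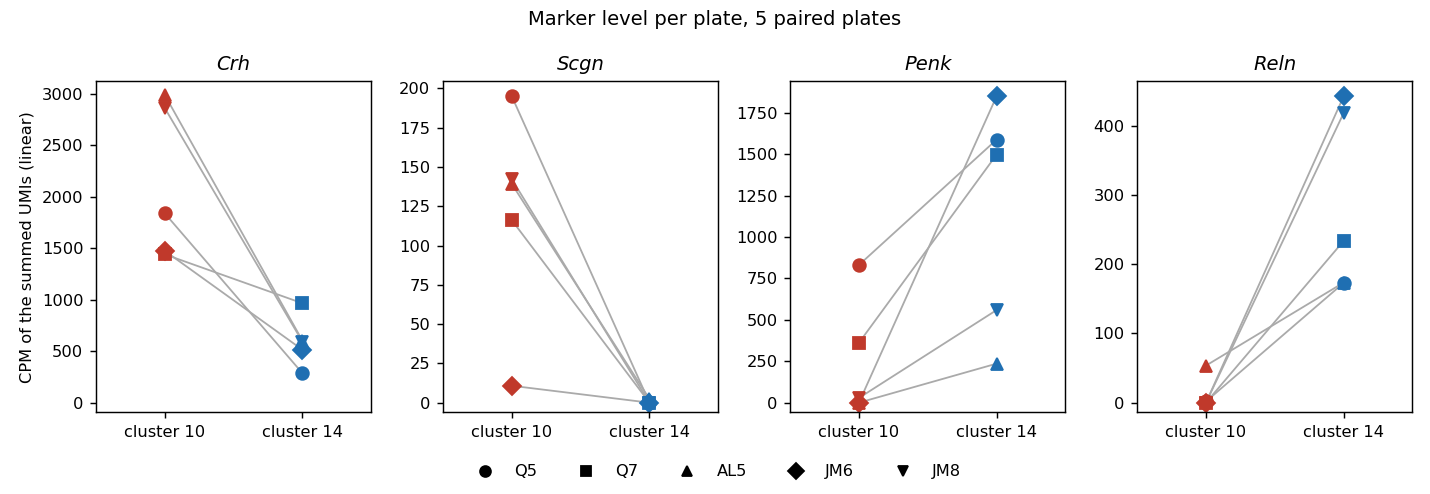
CPM of the 4 markers on the 5 paired plates (TMM-scaled totals for *Crh*, *Penk* and *Reln*, plain totals for *Scgn*), with a line joining the clusters of each plate. *Crh* and *Scgn* are higher in cluster 10 on 5 of 5 plates, *Penk* and *Reln* in cluster 14 on 5 of 5.

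Among the neuropeptide genes, 11 of 45 genes were tested, 2 were called higher in cluster 10 and 0 in cluster 14, and the median log2 fold change was -1.41 (DESeq2 tested 30, called 5 and 5, median 0.83). Beside *Crh* the call was *Nucb2*, the precursor of nesfatin-1, with 318 ± 50.3 CPM in cluster 10 and 80.6 ± 48.0 CPM in cluster 14 (SD, n = 5 plates). Its groups did not overlap, at a log2 fold change of 2.22 (SE 0.52, adjusted p = 0.0496 in edgeR), and the call was lost with any 1 of the 5 plates left out (adjusted p in edgeR 0.0658 to 0.212). *Avp*, vasopressin, had 401, 591, 1424, 8131 and 1938 CPM in cluster 10 on Q5, Q7, AL5, JM6 and JM8 and 855, 85.5, 104, 263 and 210.1 CPM in cluster 14. It was higher in cluster 10 on 4 of 5 plates and was not called, at a log2 fold change of 2.94 (SE 1.01, adjusted p = 0.382 in edgeR). It was called in 7 of 21 other settings, among them DESeq2 (2.95, adjusted p = 0.00759), the AL and JM plates alone (3.95, adjusted p in edgeR = 0.000114) and the fit without Q5 (3.64, 0.000378). *Oxt*, oxytocin, was not called either (-1.41, adjusted p = 0.765 in edgeR). It had 821, 311, 232, 88.9 and 62.3 CPM in cluster 10 on the same plates and 665, 12324, 171, 207 and 279 CPM in cluster 14. Q7 held 9662 of the 11555 *Oxt* UMIs of cluster 14, and without Q7 the log2 fold change was -0.63 (adjusted p in edgeR = 0.685). At least 1 UMI of *Avp* was found in 96.5% and of *Oxt* in 99.3% of cells of the other PVH clusters, and the control wells held 213 and 692 UMIs of them. With the control-well level subtracted neither was called, at 3.64 for *Avp* (adjusted p in edgeR = 0.405) and -6.00 for *Oxt* (0.1). *Cbln1* had a log2 fold change of -4.67 (adjusted p in edgeR = 0.053), *Cbln4* of -3.85 (0.0997) and *Pdyn*, prodynorphin, of -2.38 (0.418), and none of these was called.

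On the list of glucocorticoid feedback and CRH signalling, 20 of 35 genes were tested, 2 were called higher in cluster 10 and 0 in cluster 14, and the median log2 fold change was -0.22 (DESeq2 tested 33, called 4 and 0, median 0.23), with -0.20 for all genes in edgeR. *Nr3c1*, the glucocorticoid receptor, had 735 CPM on Q5, 687 on Q7, 134 on AL5, 523 on JM6 and 693 on JM8 in cluster 10. In cluster 14 it had 5.37, 2.55, 60.1, 39.6 and 84.6 CPM. No sum of cluster 14 reached those of cluster 10, and the gap was smallest on AL5. Its log2 fold change was 4.31 (SE 0.84, adjusted p = 0.0173 in edgeR), with an adjusted p of 0.0711 without Q5 and 0.0966 without JM6. The difference was larger on the Q plates than on the AL and JM plates by 4.73 log2 units. The interaction test did not call this (unadjusted p in edgeR = 0.000129, adjusted 0.456). At least 1 UMI of *Nr3c1* was seen in 61 of 62 cells of cluster 10 and, in cluster 14, in 13 of 57. Its mean in cluster 10, 518 ± 186 CPM (SD, n = 7), was the highest of the 12 PVH clusters, with cluster 8 next at 294 ± 147 CPM (SD, n = 4).

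*Rasd1*, a small G protein gene induced by dexamethasone, had 190.1 CPM on Q5, 167 on Q7, 253 on AL5, 131 on JM6 and 130.3 on JM8 in cluster 10. In cluster 14 it had 31.2 CPM on Q5 and no UMI on the other paired plates, and over all plates it was detected in 9 of 57 cells of that cluster. The log2 fold change was 7.10 (SE 1.31, adjusted p = 0.0107 in edgeR), with an adjusted p of 0.107 without AL5, 0.0736 without JM6 and 0.0623 without JM8. Other known glucocorticoid targets on the list were not called, with log2 fold changes of -0.28 for *Fkbp5* (adjusted p in edgeR = 0.982), -0.53 for *Tsc22d3* (0.904), 0.83 for *Klf9* (0.839) and 2.94 for *Dusp1* (0.12). *Crhr1*, a CRH receptor gene, had 0 UMIs in cluster 10 and 4 in cluster 14 on these plates and stayed below the filter.

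**Figure D5:**
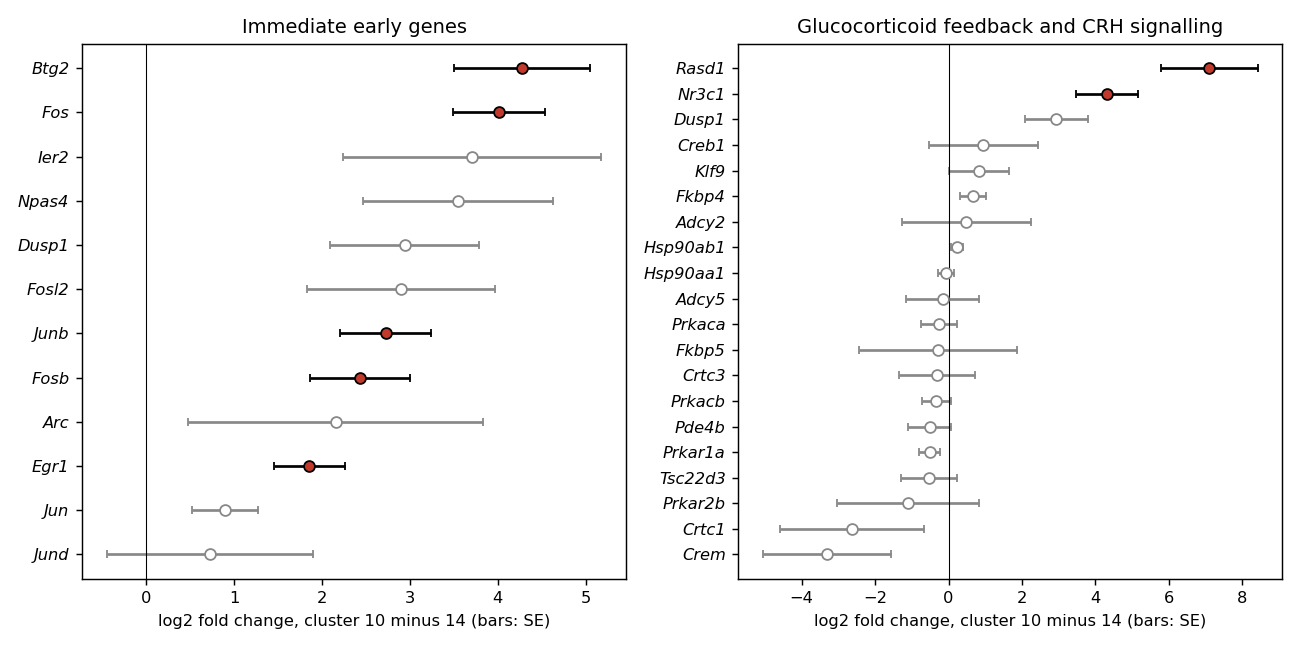
Log2 fold change (cluster 10 minus cluster 14, bars 1 standard error) of the tested immediate early genes (left, 12 genes) and genes of glucocorticoid feedback and CRH signalling (right, 20 genes), with filled red points for genes called in edgeR. The 12 immediate early genes lie above 0, and on the second list 8 of 20 genes do, with *Rasd1* and *Nr3c1* called.

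Immediate early genes, which respond within minutes to neuronal activity, were called in 1 direction. On this list 12 of 21 genes were tested, 5 were called higher in cluster 10 and 0 in cluster 14, and the median log2 fold change was 2.81 (DESeq2 tested 18, called 10 and 0, median 2.60). Over all genes the median was -0.20 in edgeR and 0.04 in DESeq2, and edgeR called 0.849% and 0.651%. The log2 fold change was above 0 for 12 of 12 tested members, also with 2 other scalings, and for 17 of 18 in DESeq2. A member could pass the filter on low counts through cluster 10 alone. *Fos*, a subunit of the AP-1 factor, had 767 CPM on Q5, 1820.5 on Q7, 1591 on AL5, 497 on JM6 and 1003 on JM8 in cluster 10. In cluster 14 it had 171, 33.2, 238, 4.65 and 56.7 CPM. The groups did not overlap, at a log2 fold change of 4.02 (SE 0.52, adjusted p = 0.000909 in edgeR). The call held with each plate left out and with only the AL and JM plates (4.02, adjusted p in edgeR = 0.00203), and on the Q plates alone the value was 3.89 (0.17).

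The other members called were less even over plates. *Junb*, another AP-1 subunit, had 867 ± 611 CPM in cluster 10 and 129 ± 120.3 CPM in cluster 14 (SD, n = 5 plates), a log2 fold change of 2.72 (SE 0.52, adjusted p = 0.0121 in edgeR), with an adjusted p of 0.0569 without Q5, 0.113 without AL5 and 0.0623 without JM8. *Btg2*, an antiproliferative gene, had 327 ± 268 CPM in cluster 10 and 22.1 ± 23.3 CPM in cluster 14 (SD, n = 5 plates), a log2 fold change of 4.27 (SE 0.77, adjusted p = 0.00895 in edgeR), with 0.0634 without AL5 and 0.058 without JM8. *Egr1*, a zinc finger factor, had 394 ± 250.1 CPM in cluster 10 and 94.97 ± 51.2 CPM in cluster 14 (SD, n = 5 plates), a log2 fold change of 1.85 (SE 0.40, adjusted p = 0.0331 in edgeR), with 0.219 without AL5, 0.163 without JM6 and 0.208 without JM8. The groups of *Junb*, *Btg2*, *Egr1* and *Fosb* overlapped between plates. *Fosb*, also an AP-1 subunit, was at 2.43 (SE 0.57, adjusted p = 0.0499 in edgeR) and was lost with any 1 plate left out (0.107 to 0.243). *Ier2* at 3.71, *Npas4* at 3.55, *Dusp1* at 2.94, *Fosl2* at 2.89, *Arc* at 2.16, *Jun* at 0.89 and *Jund* at 0.72 were not called. An exon of *Junb* overlaps *Prdx2* on the other strand.

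By mean level over the 12 PVH clusters, cluster 10 ranked 1st for *Fos*, *Junb*, *Egr1* and *Btg2* and 2nd for *Fosb*. *Fos* averaged 1184 ± 468 CPM in cluster 10 (SD, n = 7), 107 ± 102 CPM in cluster 14 (SD, n = 8) and 887 ± 245 CPM (SD, n = 4) in cluster 8, the next after cluster 10 and within its spread. Cells with *Fos* numbered 62 of 62 in cluster 10 and 23 of 57 in cluster 14, and made up 73.2% of the other PVH clusters.

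The genes with the largest fold toward cluster 10 were low in cluster 14. *Plk2*, a polo-like kinase induced by neuronal activity, had 264 CPM on Q5, 233 on Q7, 315 on AL5, 105 on JM6 and 167 on JM8 in cluster 10, against 1 UMI in cluster 14 on these plates. Its log2 fold change was 9.44 (SE 0.92, adjusted p = 0.000309 in edgeR). Cells with *Plk2* made up 58.1% of cluster 10, 5.26% of cluster 14 and 60.6% of the other PVH clusters, and cluster 14 had the lowest mean of the 12.

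*Fam159a* had 574 CPM on Q5, 587 on Q7, 567.9 on AL5, 293 on JM6 and 557 on JM8 in cluster 10, against 23.9, 0, 2.31, 0 and 0 CPM in cluster 14. It was even over the plates, at a log2 fold change of 7.55 (SE 0.84, adjusted p = 0.000417 in edgeR). Over the PVH clusters it averaged 504 ± 132 CPM in cluster 10 (SD, n = 7), and cluster 2 came next at 127 ± 21.4 CPM (SD, n = 5). *Fam46a* followed with 402 ± 237 CPM in cluster 10 and 5.52 ± 11.9 CPM in cluster 14 (SD, n = 5 plates), a log2 fold change of 7.27 (SE 0.96, adjusted p = 0.00099 in edgeR). The calls of *Plk2*, *Fam159a* and *Fam46a* held with each plate left out.

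*Otof*, which encodes otoferlin, a calcium sensor of vesicle release, had 99.6 ± 84.8 CPM in cluster 10 and 4.65 ± 10.4 CPM in cluster 14 (SD, n = 5 plates), a log2 fold change of 6.87 (SE 1.60, adjusted p = 0.0489 in edgeR), and was lost with any 1 plate left out (0.0599 to 0.298). *Arhgap36*, a regulator of protein kinase A, had 282 ± 185 CPM in cluster 10 and 20.2 ± 25.6 CPM in cluster 14 (SD, n = 5 plates), a log2 fold change of 4.74 (SE 0.83, adjusted p = 0.00701 in edgeR), with 0.0518 without JM6.

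Among transcription factors, 24 of 74 genes were tested, 2 were called higher in cluster 10 and 2 in cluster 14, and the median log2 fold change was 0.41 (DESeq2 tested 57, called 4 and 6, median 0.56). *Fezf2*, a zinc finger factor of forebrain development, had 29.4 CPM on Q5, 68.9 on Q7, 77.3 on AL5, 141 on JM6 and 99.2 on JM8 in cluster 10. It had no UMI in cluster 14 on these plates (206 UMIs against 0), so its level in cluster 10 alone decided whether it was tested. With 3 counts over the group as the floor it was at least 129-fold higher in cluster 10 there (adjusted p in edgeR = 0.0425), with an adjusted p of 0.0811 without Q5, 0.145 without AL5, 0.163 without JM6 and 0.175 without JM8. Over all plates it averaged 66.2 ± 44.3 CPM in cluster 10 (SD, n = 7) and 1.18 ± 3.33 CPM in cluster 14 (SD, n = 8). *Bcl11a*, another zinc finger factor, had 168 ± 47.8 CPM in cluster 10 and 16.3 ± 30.1 CPM in cluster 14 (SD, n = 5 plates), a log2 fold change of 5.18 (SE 1.13, adjusted p = 0.0338 in edgeR), and was lost with any 1 plate left out (0.053 to 0.147). Both had their highest mean over the PVH clusters in cluster 10, with cluster 3 next at 58.5 ± 19.0 CPM (SD, n = 5) for *Fezf2*, within the spread, and 73.3 ± 20.6 CPM (SD, n = 5) for *Bcl11a*.

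*Foxp2*, a forkhead factor, ran the other way, with 137 CPM on Q5, 99.5 on Q7, 296 on AL5, 223 on JM6 and 94.5 on JM8 in cluster 14 and 1 UMI in cluster 10 on these plates. The log2 fold change was -8.21 (SE 1.10, adjusted p = 0.00099 in edgeR), and the call held with each plate left out. Cells with *Foxp2* numbered 1 of 62 in cluster 10 and 44 of 57 in cluster 14, and made up 54.9% of the other PVH clusters. *Lmo1*, a LIM-domain cofactor, had 4.97 ± 10.5 CPM in cluster 10 and 134 ± 75.9 CPM in cluster 14 (SD, n = 5 plates), a log2 fold change of -6.27 (SE 1.31, adjusted p = 0.0246 in edgeR), with 0.137 without Q5, 0.0817 without JM6 and 0.122 without JM8. The PVH factors *Sim1* (-0.08), *Otp* (-0.25), *Arnt2* (1.34) and *Pou3f2* (0.99) were not called, nor was *Zeb2* (-9.03, adjusted p = 0.0511 in edgeR).

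For neuropeptide and hormone receptors, 14 of 65 genes were tested, 2 were called higher in cluster 10 and 0 in cluster 14, and the median log2 fold change was 0.30 (DESeq2 tested 48, called 4 and 4, median -0.06). *Ramp1*, an accessory subunit of the receptor for calcitonin gene-related peptide, had 553 CPM on Q5, 161 on Q7, 321 on AL5, 167 on JM6 and 310.2 on JM8 in cluster 10. Its levels in cluster 14 were 14.6, 3.83, 0, 13.96 and 12.8 CPM. Sums of the clusters did not overlap, at a log2 fold change of 5.11 (SE 0.65, adjusted p = 0.000828 in edgeR), and the call held with each plate left out. *Sstr2*, a somatostatin receptor gene, had 113 ± 40.2 CPM in cluster 10 and 1.66 ± 3.72 CPM in cluster 14 (SD, n = 5 plates), a log2 fold change of 7.18 (SE 1.43, adjusted p = 0.0173 in edgeR), with 0.0609 without Q5, 0.126 without AL5, 0.098 without JM6 and 0.0899 without JM8. *Sstr1* had a log2 fold change of 5.14 (adjusted p in edgeR = 0.139) and *Prlr*, the prolactin receptor gene, of -5.44 (0.139), and neither was called.

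Of the glutamate receptor genes, *Grin3a* at 2.32 (adjusted p in edgeR = 0.0679) and *Grm5* at -6.51 (0.0772) were not called. Several lists had 0 calls in edgeR, namely monoamine and acetylcholine receptors (6 tested, 1 at an unadjusted p under 0.05, median -1.02), potassium channels (25 tested, 5 at an unadjusted p under 0.05, median -0.09), sodium, calcium, HCN and TRP channels (29 tested, 6 at an unadjusted p under 0.05, median -0.69) and transmitter identity (6 tested, 0 at an unadjusted p under 0.05, median -0.55). DESeq2, which fitted more of them, called 0 of 20, 7 of 59, 4 of 48 and 1 of 10 of these lists, against 612 of 17512 over all genes. Among the transmitter genes *Slc17a6* had 139 ± 66.0 CPM in cluster 10 and 218 ± 104 CPM in cluster 14 (SD, n = 5 plates) and was not called, at -0.68, adjusted p = 0.741 in edgeR, whereas limma on log2(CPM + 1) per cell called it at -2.65 (adjusted p = 0.0358).

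On the list of calcium-binding proteins, which held *Scgn* below the filter, 16 of 21 genes were tested, 0 were called higher in cluster 10 and 3 in cluster 14, and the median log2 fold change was -0.41 (DESeq2 tested 20, called 1 and 5, median -0.36). *Ncald*, neurocalcin delta, had 514 CPM on Q5, 758 on Q7, 324 on AL5, 509.6 on JM6 and 294 on JM8 in cluster 14. Its levels in cluster 10 were 44.9, 76.2, 5.95, 115 and 15.6 CPM. Here too the clusters stood apart on these plates, at a log2 fold change of -3.61 (SE 0.45, adjusted p = 0.000708 in edgeR), and the call held with each plate left out. *S100a10*, an annexin partner, had 21.0 ± 40.8 CPM in cluster 10 and 216 ± 156 CPM in cluster 14 (SD, n = 5 plates), a log2 fold change of -4.59 (SE 1.06, adjusted p = 0.0452 in edgeR), with 0.118 without Q5, 0.185 without AL5, 0.163 without JM6 and 0.166 without JM8. By mean level over the PVH clusters, cluster 14 ranked 3rd for *Ncald* and for *S100a10*, and cluster 10 ranked 12th and 9th. *Caln1*, calneuron 1, had no UMI in cluster 10 and 374 in cluster 14 on these plates, at least 66.4-fold higher in cluster 14 (adjusted p in edgeR = 0.0469), and was lost with any 1 plate left out (0.0742 to 0.19).

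On the list of reelin and netrin-G genes, 9 of 13 genes were tested, 0 were called higher in cluster 10 and 2 in cluster 14, and the median log2 fold change was -0.74 (DESeq2 tested 12, called 1 and 2, median -0.36). Beside *Reln* the call was *Ntng1*, a membrane-anchored netrin, with 402 CPM on Q5, 355 on Q7, 162 on AL5, 156 on JM6 and 153 on JM8 in cluster 14. Its levels in cluster 10 were 32.8, 54.3, 5.95, 0 and 1.42 CPM. The groups did not overlap, and the log2 fold change was -4.39 (SE 0.72, adjusted p = 0.00454 in edgeR), called with each plate left out. The reelin receptor gene *Lrp8* (-2.19) and the adaptor gene *Dab1* (1.49) were not called. On the list of synaptic adhesion molecules and cadherins, 36 of 59 genes were tested, 0 were called higher in cluster 10 and 1 in cluster 14, and the median log2 fold change was -0.47 (DESeq2 tested 56, called 3 and 6, median -0.61). The call was *Pcdh19*, a protocadherin, with 545 UMIs in cluster 14 and 0 in cluster 10 on the paired plates, at least 96.8-fold higher there (adjusted p in edgeR = 0.0199), with 0.0609 without Q5, 0.079 without AL5, 0.105 without JM6 and 0.0739 without JM8. Over all plates it was detected in 2 of 62 cells of cluster 10 and averaged 4.12 ± 7.41 CPM (SD, n = 7), against 109.9 ± 56.0 CPM in cluster 14 (SD, n = 8). Axon guidance ligands and receptors had 0 calls in edgeR (20 tested, 2 at an unadjusted p under 0.05, median 0.59). DESeq2 called 3 of 55, against 612 of 17512 over all genes.

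The remaining genes with the largest folds toward cluster 14 lay outside these lists. *Edil3*, a secreted integrin ligand, had 154 CPM on Q5, 186 on Q7, 148 on AL5, 72.1 on JM6 and 42.3 on JM8 in cluster 14 and no UMI in cluster 10 on these plates. It was at least 109-fold higher in cluster 14 there (adjusted p in edgeR = 0.0181), with 0.0649 without Q5 and 0.0945 without AL5. Over all plates *Edil3* was detected in 1 of 62 cells of cluster 10, with means of 2.99 ± 7.92 CPM in cluster 10 (SD, n = 7) and 97.9 ± 51.7 CPM in cluster 14 (SD, n = 8). *Fgf13*, an intracellular FGF that binds sodium channels, had 432 UMIs in cluster 14 and 0 in cluster 10 on the paired plates, at least 76.7-fold higher (adjusted p in edgeR = 0.022), with 0.151 without AL5 and 0.111 without JM6, and fell below the filter without Q7 or JM8. *Fgf1*, a growth factor, had 0.283 ± 0.633 CPM in cluster 10 and 124 ± 96.1 CPM in cluster 14 (SD, n = 5 plates), a log2 fold change of -7.99 (SE 1.37, adjusted p = 0.00635 in edgeR), with 0.113 without AL5 and 0.0834 without JM8.

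*Fam150b*, a secreted ligand of receptor tyrosine kinases, had 1.78 ± 3.99 CPM in cluster 10 and 185 ± 31.1 CPM in cluster 14 (SD, n = 5 plates), a log2 fold change of -7.54 (SE 1.10, adjusted p = 0.0021 in edgeR), and was called with each plate left out. It was detected in 75.4% of cells of cluster 14, 1.61% of cluster 10 and 6.06% of the other PVH clusters, and cluster 13 had 161 ± 68.0 CPM (SD, n = 3) against 166 ± 34.3 CPM in cluster 14 (SD, n = 8). *Pgm2l1*, an enzyme of sugar phosphate metabolism, had 0.492 ± 0.687 CPM in cluster 10 and 125 ± 54.6 CPM in cluster 14 (SD, n = 5 plates), a log2 fold change of -7.21 (SE 1.24, adjusted p = 0.00635 in edgeR), with 0.067 without AL5 and 0.0612 without JM8.

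Among genes of peptide processing and granule proteins, 19 of 28 genes were tested, 1 was called higher in cluster 10 and 0 in cluster 14, and the median log2 fold change was 0.07 (DESeq2 tested 25, called 2 and 2, median -0.48). *Scg5*, the chaperone of prohormone convertase 2, had 1654 ± 509 CPM in cluster 10 and 1022 ± 399 CPM in cluster 14 (SD, n = 5 plates), a log2 fold change of 0.73 (SE 0.17, adjusted p = 0.0499 in edgeR), with 0.238 without Q5, 0.155 without AL5, 0.153 without JM6 and 0.316 without JM8. Further genes lay outside the lists and are named after their values were seen. *Rab3b*, a GTPase of secretory vesicles, had 1488 CPM on Q5, 761 on Q7, 657 on AL5, 476 on JM6 and 656 on JM8 in cluster 10. Its levels in cluster 14 were 341, 148, 71.6, 121 and 99.7 CPM. The groups did not overlap, at a log2 fold change of 2.47 (SE 0.26, adjusted p = 0.000417 in edgeR). Genes called higher in cluster 10 by smaller folds included *Hspa5*, the chaperone BiP, at 1.69, adjusted p = 0.00431 in edgeR, *Erp29* at 1.56 (0.000828), *Tmed3* at 2.18 (0.00166), *Ssr4* at 1.83 (0.0021), *Os9* at 1.62 (0.00275) and *Ergic3* at 1.42 (0.00325). *Spint2*, a protease inhibitor, at 2.48 (0.000417), *Lrpap1*, a chaperone of LDL receptor family proteins, at 2.03 (0.000607), *Zbtb20* at 1.63 (0.00269) and *Nrn1*, neuritin, at 3.66 (0.00431) were also higher in cluster 10. Apart from *Nrn1*, with 0.0541 without JM6, the calls of these 11 genes held with each plate left out. *Erp29* overlaps exons of *Naa25* and *Tmem116*, *Rab3b* of *8030443G20Rik* and *Nrn1* of *Fars2*, each on the other strand.

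Further genes called toward cluster 14 were also named after their values were seen. *Gap43*, the growth-associated protein of axons, had 3009 CPM on Q5, 1975 on Q7, 1800.2 on AL5, 1719.5 on JM6 and 1544 on JM8 in cluster 14. Its levels in cluster 10 were 1047, 884, 672, 413 and 615 CPM. Every sum of cluster 14 exceeded those of cluster 10, at a log2 fold change of -1.49 (SE 0.18, adjusted p = 0.000607 in edgeR). *Nefm* and *Nefl*, subunits of neurofilaments whose exons overlap each other on opposite strands, were at -3.35, adjusted p = 0.00123 in edgeR and -2.30, adjusted p = 0.0021 in edgeR, and *Stmn2*, stathmin 2, was at -1.39, adjusted p = 0.00545 in edgeR. *Sncg*, gamma-synuclein, was at -3.96, adjusted p = 0.00426 in edgeR, with 0.0742 without Q5, and on Q7 it had 1 UMI in cluster 14 and 0 in cluster 10. *Pcp4* (-4.57), *Rgs10* (-4.60), *Aldoc* (-4.95), *Got1* (-1.93) and *Acot7* (-1.47) were called at an adjusted p in edgeR of 0.00346 or less. Apart from *Sncg*, the calls of these genes held with each plate left out. *Gap43* and *Nefm* had their highest mean over the PVH clusters in cluster 14, with *Gap43* in cluster 12 close behind at 1701 ± 301 CPM (SD, n = 6) against 1748 ± 313 CPM (SD, n = 8). *Nefm* in cluster 1, at 616 ± 161 CPM (SD, n = 10), lay within the spread of cluster 14, at 833 ± 558 CPM (SD, n = 8). For *Pcp4* cluster 14 ranked 5th, and for *Nefm* and *Pcp4* cluster 10 ranked last of the 12.

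The number of called genes depended on single plates. It was 58 without Q5, 49 without AL5, 50 without JM6, 51 without JM8 and 118 without Q7, against 106 with all 5. Of the 53 called genes named here, 29 were called with each plate left out in turn and 13 in every setting in which they were tested. With the 9 cells of cluster 10 without *Crh* left out, a setting added after the data were seen that left 1 cell on JM6 and so 4 plate pairs, 51 genes were called, *Crh*, *Scgn* and *Penk* among them. On the study's in situ panel 8 of 12 genes were tested, 1 was called higher in cluster 10 (*Crh*) and 2 in cluster 14 (*Reln* and *Ntng1*). DESeq2 called 3 and 4 of 12, against 244 and 368 of 17512 over all genes. *Npy1r* and *Gad2* stayed below the filter, with *Npy1r* in 2 of 62 and 4 of 57 cells and *Gad2* in 15 of 62 and 15 of 57 cells of clusters 10 and 14.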

How the data were processed

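Single PVH cells were sequenced by SMART-SCRB, a UMI method with cell barcodes, on 10 plates of 96 wells. The authors deposited UMI counts per gene and cell, with spike-in counts and a table of cluster numbers, and the counts used here are raw. The submitters' processing notes name Trimmomatic 0.36, STAR 2.5.3a and GRCm38.p5. Cells were picked 1 by 1, so no doublet caller was run, and 0 pairs of cells held identical values. Labels and methods name different sequencers.

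UMIs were summed per plate and cluster where both had at least 3 cells, and compared with edgeR 4.0.16 in R 4.3.3 (TMM, filterByExpr, robust quasi-likelihood F-test, plate as block, Benjamini-Hochberg over all genes tested). DESeq2 1.42.0 and limma 3.58.1 were alternatives. Sums of 185906 to 2546904 UMIs set the depth. Single values were tested by exact permutation over plates with Python 3.11.15, scipy 1.17.1, numpy 2.4.6 and pandas 2.3.3. The fit was tested on simulated counts for the 7069 genes and found 70% of 8-fold and 95% of 32-fold changes with 4 false calls, and DESeq2 made 80 false calls in the same simulation. Each simulated gene had 1 mean level over all plates and the trended dispersion of edgeR. Changed genes were not drawn from the lowest levels. The rates therefore hold for these settings and may differ in the real sums. The control wells were not labelled as such, and were found as the 40 wells whose level, subtracted, returns the totals of the authors' table in 706 of 706 cells.

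The members and gene lists were chosen with earlier results of these data known. Genes named were the 4 markers, the 10 with the largest log2 fold change each way among those called and alike on every plate (gene models and pseudogenes left out), up to 6 called members per list, and 10 background genes. Others, list members given as not called included, were picked with their values in view. A few results are not reported here. The same plate holds both clusters, which pairs the sums.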

Additional observations from a re-analysis of the deposited data

Results flagged for a closer look

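Over 38 groups of plate values with 4 to 10 members, 3 had 1 plate far from the others by Dixon's test, and chance flags about 1 in 20 groups. *Scgn* in cluster 14 was highest on AL5, at 2.34 CPM from 1 UMI, with 0 on the other paired plates. The log2 difference of *Rasd1* between the clusters was lowest on Q5, at 2.51, the plate on which cluster 14 held 64 UMIs of *Rasd1* and the other paired plates 0. The log2 difference of *Fam150b* was nearest to 0 on AL5, at -4.39, the plate on which cluster 10 held 3 UMIs of it and the other paired plates 0.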

How the results depend on the processing

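The plate was kept as a block because each plate holds both clusters, and without the replicate block, over all plates, 279 genes were called (137 higher in cluster 10, 142 in cluster 14). Against 106 called genes (60 and 46), the count was 612 with DESeq2 (244 and 368), 241 with no filter on low counts (87 and 154), 151 with at least 50 UMIs (69 and 82), 200 with sums of at least 5 cells (76 and 124, 2 plate pairs), 571 with all PVH clusters fitted together (235 and 336) and 544 with limma on log2(CPM + 1) per cell (115 and 429). It was 63 with thinned cells (37 and 26, 4 plate pairs), 55 without the deepest cells (35 and 20), 41 on Q plates alone (18 and 23), and, in settings added after the data were seen, 221 with sums of at least 2 cells (100 and 121) and 51 with *Crh* cells of cluster 10 alone (32 and 19, 4 plate pairs). Both fits on 4 pairs lacked JM6, and without JM6 alone the count was 50. The cause was not tested. RLE and library size scaling gave 115 (66 and 49) and 118 (68 and 50), and subtraction of the control-well level gave 95 (51 and 44). With a plate left out the count ran from 49 to 118, from 28 to 55 for cluster 10 and from 21 to 63 for cluster 14. The 106 called genes kept their sign wherever tested.

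*Sim1*, not called, reversed to 0.91 on AL and JM plates, 0.0903 without the deepest cells and, with a plate left out, ran from -1.08 to 0.84 (0.84 without Q5, 0.47 without AL5), and *Slc17a6* to 0.56 on Q plates. The interaction called 9 genes with no filter and could not be fitted with sums of at least 5 cells. With a plate left out, the difference in share between Q and other plates ran from 4.82 to 10.3 points for cluster 10 (adjusted exact permutation p = 0.0317 without JM8) and from -9.56 to -6.31 for cluster 14 (0.0476 without Q5, 0.0317 without AL5).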
